A study of Mus musculus with 4 samples.

Results

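The genes described here carry iron into the cell, store it, export it, sense it and release it from heme. Of the 10 genes listed for these roles (Tfrc, Slc11a2, Trf, Fth1, Ftl1, Slc40a1, Cp, Aco1, Ireb2 and Hmox1), 8 had at least 1 probe set whose annotation named that gene alone, with 24 such probe sets in all, out of 18193 genes and 34945 probe sets named in this way on the array. A probe set is a group of short probes that together give 1 signal for 1 transcript. The 3 probe sets annotated with Ftl1 and the 1 annotated with Trf also name other genes, so both genes were not analysed here. Of the 8 genes, 7 passed a filter on low signal, with 16 probe sets, and Cp did not. The 10 genes were chosen on the difference between E14.5 and E11.5 cells in these same arrays, so their differences and calls are a description and support no inference about iron genes as a class.

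The E14.5 cells were telencephalic neuroepithelium taken from mice of the ICR strain at embryonic day 14.5 and cultured for 4 days. The E11.5 cells were the same tissue of that strain at embryonic day 11.5, cultured for 1 day. Each group had 2 arrays. Both groups grew with 10 ng/ml basic FGF, a mitogen of neural precursors, on polyornithine and fibronectin, in medium with the N2 supplement, which itself contains transferrin. Embryonic age and days in culture differ together between the groups and cannot be told apart. The markers Sox2, Vim and Nes of neuroepithelial cells were bright in both groups, with mean scaled signals of 4143 at E14.5 and 2730 at E11.5 for Sox2. Of the 9 measured markers of these cells Sox2 was higher at E14.5, Sox1 (-1.49), Pax6 (-0.83) and Emx2 (-0.78) were lower, and the median log2 difference was -0.37. These are mixed cultures, in which fewer cells of a type and less RNA per cell cannot be told apart.

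Most cells take up iron bound to transferrin. The transferrin receptor carries it into an endosome, the divalent metal transporter moves it into the cytosol, ferritin stores what is not used, and ferroportin lets it leave the cell, helped by the ferroxidase ceruloplasmin. When iron is scarce, the iron regulatory proteins bind hairpins in messenger RNAs, which stabilises the receptor's messenger and blocks the translation of ferritin. Heme oxygenase breaks heme into iron, biliverdin and carbon monoxide. In the brain, cells of the oligodendrocyte lineage are rich in iron and ferritin, and microglia recycle heme and iron.

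Tfrc and Fth1 stand at the opposite ends of this pathway, uptake and storage, and were called in opposite directions here, so the letters found by a search of the 250 bases before their starts are shown for both. RefSeq (GRCm38.p6) gave such a window for 6 of the 10 genes, and for a gene with 2 starts the one farther along the gene was used. The search, on both strands, covered the hypoxia response core (ACGTG), the CCAAT box, the TATA box (TATAA) and the antioxidant response core (TGANNNNGC). Capitals mark the match, and each stretch of 30 bases lies before the start, on the plus strand, written 5′ to 3′.
Tfrc, chr16:32608882-32608911: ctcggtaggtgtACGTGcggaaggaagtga
Tfrc, chr16:32608938-32608967: gtggggccgagcTATAAgctttgggtggga
Fth1, chr19:9982616-9982645: gggcggcgcggcccgctgcgctgATTGGcc
The ACGTG of Tfrc begins 228 bases before that start and the TATAA 172 bases before it. Tfrc and Fth1 each have 2 annotated starts, and the positions given refer to the one farther along the gene. In Fth1 the match is CCAAT read from the minus strand, and it begins 7 bases before the start. Among the other windows searched, CCAAT was also found for Ftl1 and Cp, TATAA for Cp and the antioxidant core for Aco1. No match was found for Ireb2. Among 32851 windows of this length, 16.6% held the hypoxia core, 33.8% the CCAAT letters, 22.8% the TATAA letters and 35.2% the antioxidant core. These are matches of letters only, and no binding was measured.

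Transferrin receptor 1, Tfrc, was lower at E14.5 at every probe set that names it. Its brightest probe set, 1452661_at, gave scaled signals of 625 and 632 in E14.5 cells, against 1574 and 1477 in E11.5 cells. The E14.5 arrays were nearly equal and well below both E11.5 arrays. On the log2 scale E14.5 minus E11.5 came to -1.26 ± 0.13, which is 0.412 as a ratio of mean signals. All errors of differences are moderated SE from the limma fit, with n = 2 arrays in each group. They draw on the spread of all tested probe sets and are not the SE of a probe set's own arrays. Probe set 1422966_a_at gave 122 and 64.9 in E14.5 cells, against 389 and 648 in E11.5 cells (-2.33 ± 0.29). Probe set 1422967_a_at gave 53.8 and 29.6 in E14.5 cells, against 124 and 236 in E11.5 cells (-1.80 ± 0.33). The groups did not overlap at any of the 3, and all 3 were called lower. A call here means a Benjamini-Hochberg adjusted p under 0.05 in a limma fit over 27022 probe sets. Over all tested probe sets 12.6% were called lower and 31.9% had both E14.5 arrays below both E11.5 arrays.

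The array also carries 3 control probe sets along the Tfrc transcript, which were not part of the fit and give a second measure. The one at the 3′ end gave 64.6 and 63.6 in E14.5 cells, against 231 and 401 in E11.5 cells. The middle one gave 16.7 and 24.1 in E14.5 cells, against 48.1 and 95.1 in E11.5 cells. The one at the 5′ end gave 6.61 and 15.2 in E14.5 cells, against 67.0 and 132 in E11.5 cells, so the E14.5 values lay around the constant of 12.8 that was added before taking log2. The groups did not overlap at any of the 3 control probe sets, and the log2 differences were -2.05 at the 3′ end, -1.30 in the middle and -2.21 at the 5′ end. Over the 6 probe sets the log2 difference therefore ran from -2.33 to -1.26. E11.5 replicate 2 was brighter than E11.5 replicate 1 at 5 of the 6, with 1452661_at as the exception.

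The ratio of 3′ to 5′ signal for Tfrc was 9.77 and 4.19 in E14.5 cells and 3.45 and 3.04 in E11.5 cells. That of Gapdh was 0.825 and 0.879 in E14.5 cells and 0.806 and 0.808 in E11.5 cells, and that of beta-actin 1.10 and 1.14 in E14.5 cells and 1.14 and 1.11 in E11.5 cells. Both E14.5 arrays thus had the higher ratio for Tfrc and, by less, for Gapdh, while the groups overlapped for beta-actin. The Tfrc ratios at E14.5 rest on 5′ signals near the added constant, and the part of RNA quality in the Tfrc difference was not tested.

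**Figure D1:**
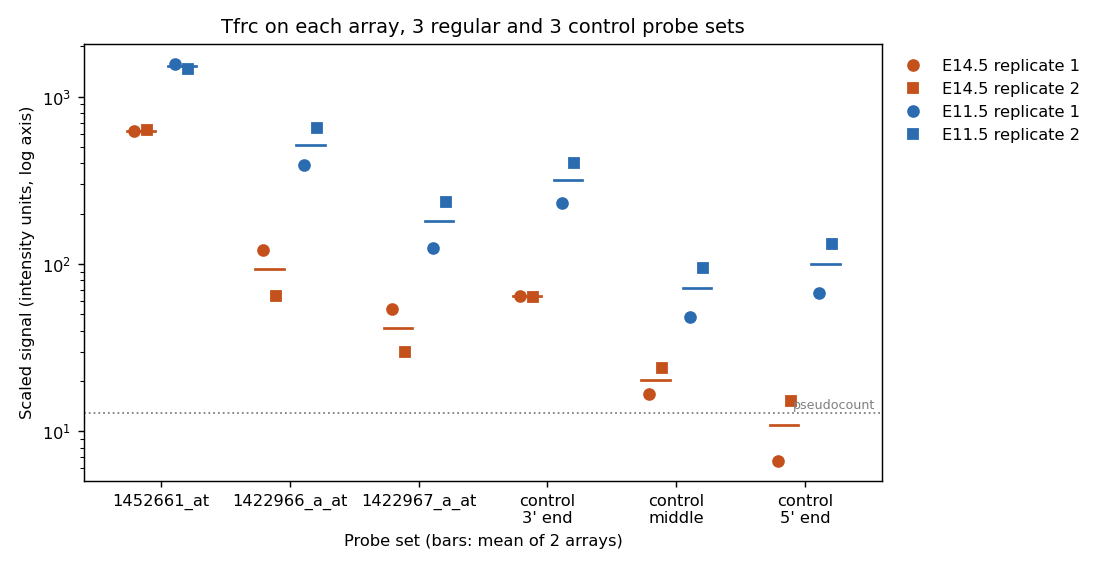
Scaled signal of Tfrc (log axis, intensity units) at 3 regular and 3 control probe sets on each of the 4 arrays, with E14.5 left of E11.5, a point per array and a bar at each group mean. At all 6 probe sets both E14.5 arrays lie below both E11.5 arrays, and the dotted line is the constant of 12.8.

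Slc11a2, the divalent metal transporter that takes iron out of the endosome, had 4 probe sets and none was called. At 1426441_at the signals were 102 and 62.6 in E14.5 cells, against 137 and 119 in E11.5 cells, a log2 difference of -0.59 ± 0.25. The groups did not overlap there, with both E14.5 arrays lower. At 1452078_a_at they were 103 and 71.4 in E14.5 cells, against 130 and 114 in E11.5 cells (-0.45 ± 0.24). The 2 dimmer probe sets, 1417584_at (-0.44 ± 0.32) and 1441709_at (-0.60 ± 0.48), overlapped between the groups. All 4 differences were negative. E14.5 replicate 2 was the lowest array at each of the 4 probe sets, and without E14.5 replicate 1 the brightest was called lower, at -0.90. Without E14.5 replicate 2 that difference was -0.29, and the difference of 1441709_at turned to 0.07.

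Ferritin heavy chain, Fth1, forms the iron-oxidising part of the storage shell. It was called higher at E14.5 at both of its probe sets. At 1427021_s_at the signals were 6303 and 7495 in E14.5 cells, against 4044 and 3756 in E11.5 cells. At 1448771_a_at they were 4476 and 4186 in E14.5 cells, against 2786 and 2428 in E11.5 cells. The groups did not overlap at either, and the log2 differences were 0.82 ± 0.13 and 0.73 ± 0.12, or 1.77 and 1.66 as ratios of means. Mouse Fth1 has processed pseudogenes, and the ending _s_at marks probes that can share transcripts, so the first value may include related sequences. Quantile normalization gave a smaller difference, 0.47 at 1427021_s_at, which was still called higher.

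**Figure D2:**
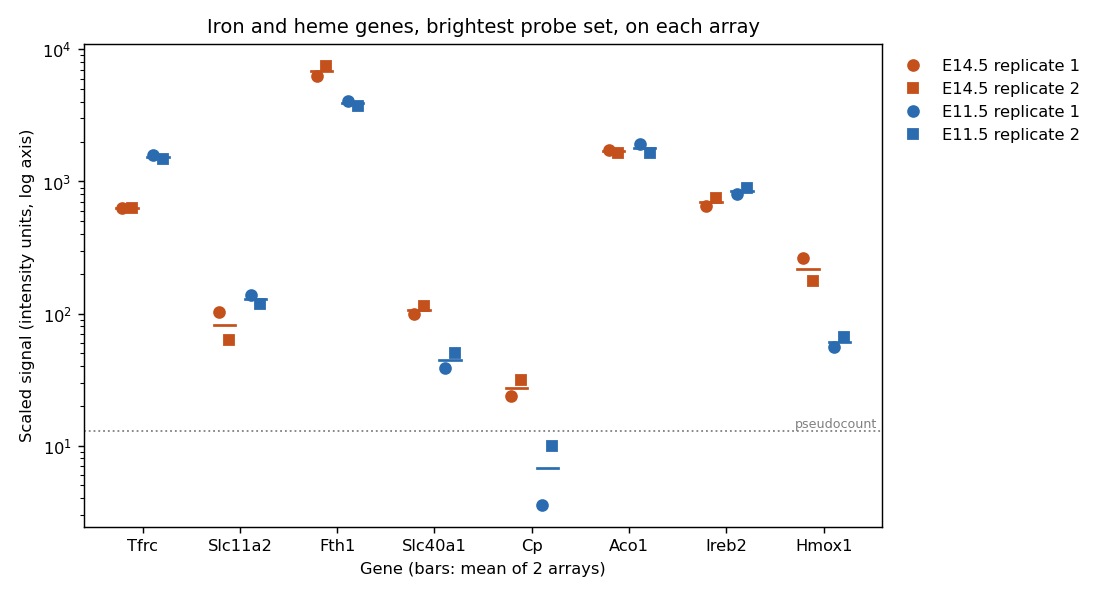
Scaled signal (log axis, intensity units) of the brightest probe set of each of the 8 genes on the 4 arrays, E14.5 left of E11.5, with a point per array and a bar at each group mean. Fth1, Slc40a1, Hmox1 and Cp have both E14.5 arrays above both E11.5 arrays, Tfrc, Slc11a2 and Ireb2 both below, and Aco1 overlaps; Cp lies around the dotted constant of 12.8.

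Ferroportin, Slc40a1, the known route by which cells export iron, was higher at E14.5 at a low level. At 1448566_at the signals were 99.6 and 113 in E14.5 cells, against 38.4 and 50.4 in E11.5 cells (1.07 ± 0.25), and it was called higher. At 1417061_at they were 98.2 and 53.9 in E14.5 cells, against 34.0 and 27.0 in E11.5 cells (1.00 ± 0.33), and it was not called. The groups did not overlap at either probe set, and the ratios of means were 2.40 and 2.50. The call of 1448566_at was lost with no filter on low signal, where 45037 probe sets were tested, at an unchanged difference of 1.07. The second probe set was called without E14.5 replicate 2 (1.37) or E11.5 replicate 1 (1.11) and with a larger added constant, the median of all values (0.68), and E14.5 replicate 1 was its brightest array.

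Ceruloplasmin, Cp, oxidises iron as it leaves the cell and is made by astrocytes and the choroid plexus. All of its 8 probe sets had mean signals below the filter of 27.3, so Cp was not tested. The brightest, 1417496_at, gave 23.7 and 31.3 in E14.5 cells, against 3.56 and 10.0 in E11.5 cells. The probe set 1417494_a_at lay farther apart, with 29.1 and 22.4 in E14.5 cells, against 3.56 and 5.79 in E11.5 cells. At 3 of the 8 probe sets both E14.5 arrays were above both E11.5 arrays; over all 45037 probe sets 26.7% were so placed, 25.3% lay the other way round and 52.0% did either. At the other 5 the groups overlapped, and none of the 8 was called when the filter was dropped. On all 4 arrays the signals of Cp lay within a few times the added constant or under it, so no fold is given.

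Neither of the sensors was called. Aco1 encodes iron regulatory protein 1, which is also the cytosolic aconitase. Its brightest probe set, 1456728_x_at, gave 1744 and 1648 in E14.5 cells, against 1936 and 1629 in E11.5 cells, and the groups overlapped (-0.07 ± 0.13). At 1423644_at the signals were 471 and 506 in E14.5 cells, against 361 and 471 in E11.5 cells (0.24 ± 0.17). The dimmest, 1447080_at, gave 50.3 and 45.7 in E14.5 cells, against 31.2 and 26.7 in E11.5 cells (0.54 ± 0.31), and here the groups did not overlap. The 3 probe sets of Aco1 thus did not share a sign, and none was called. Ireb2 encodes iron regulatory protein 2, which is destroyed when iron is plentiful. Its probe set 1433527_at gave 656 and 744 in E14.5 cells, against 806 and 889 in E11.5 cells. Both E14.5 arrays were lower, but the log2 difference of -0.27 ± 0.14 was not called.

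Heme oxygenase 1, Hmox1, the inducible enzyme of heme breakdown, had the largest positive difference of the 7 tested genes. Its single probe set, 1448239_at, gave 262 and 175 in E14.5 cells, against 55.7 and 66.5 in E11.5 cells. Both E14.5 arrays lay above both E11.5 arrays, with E14.5 replicate 1 the brightest. The log2 difference was 1.63 ± 0.24 and it was called higher, with 3.58 as the ratio of means. It ran from 1.35 to 1.90 when each array was left out in turn, and was called each time.

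By brightest probe set, 3 of the 7 tested genes were called higher at E14.5 (Fth1, Slc40a1 and Hmox1), 1 was called lower (Tfrc) and 3 were not called (Slc11a2, Aco1 and Ireb2). Over all 12952 tested genes, 14.3% were called higher, 13.6% lower and 27.8% either way; since the genes were chosen with this contrast known, nothing is read from the comparison. The groups did not overlap for 3 genes higher and 3 lower, against 34.6% and 31.0% of all tested genes, or 65.6% either way. Of the 16 tested probe sets 4 were called higher and 3 lower, against 11.1% and 12.6% of all tested probe sets (23.7% either way), and 6 lay without overlap in each direction, against 30.1% and 31.9% (61.9% either way). The median log2 difference of the 7 genes was -0.07 and their median absolute difference 0.82, against 0.03 and 0.35 over all tested genes. That -0.07 is the value of Aco1 at 1456728_x_at, a gene whose 3 probe sets did not share a sign. Without any scaling the median of all probe sets shifted to -0.71. There no member was called higher, Slc11a2 was called lower beside Tfrc, and the log2 difference of Fth1 was 0.04 at 1427021_s_at and turned to -0.04 at 1448771_a_at. Relative to that shift, the differences were 0.75 for Fth1 (1427021_s_at), 1.12 for Slc40a1, 1.65 for Hmox1 and -1.32 for Tfrc.

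**Figure D3:**
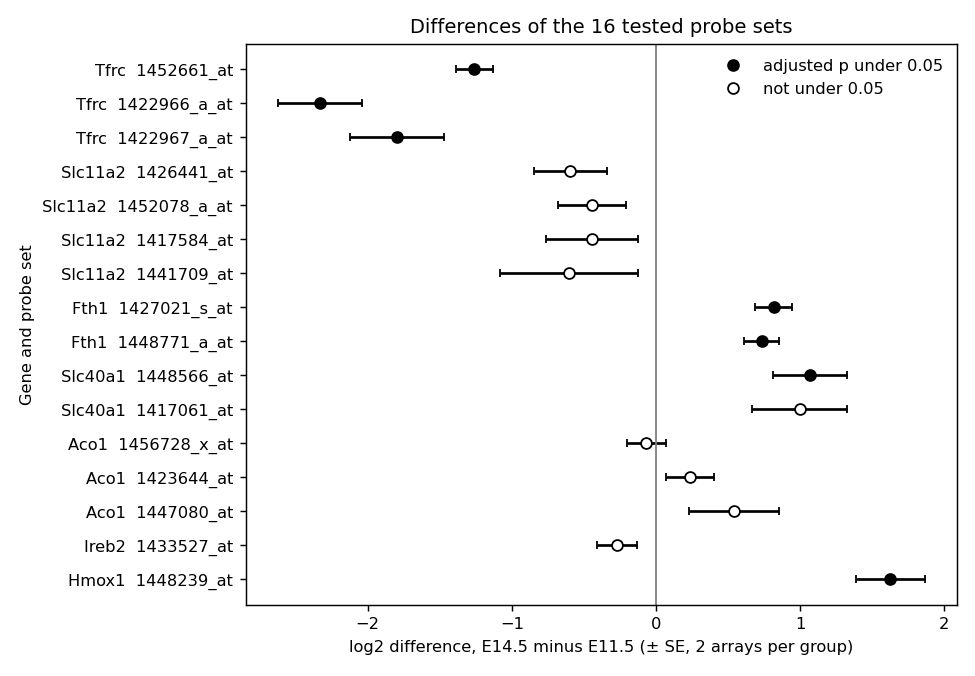
Log2 difference, E14.5 minus E11.5, of the 16 tested probe sets with bars of 1 moderated SE (2 arrays per group). Filled points had an adjusted p under 0.05 in the fit over all tested probe sets: the 3 of Tfrc on the negative side, and both of Fth1, 1 of Slc40a1 and that of Hmox1 on the positive side.

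The 3 other genes listed for heme breakdown were all called higher at E14.5, against 14.3% of all tested genes. Blvrb, a biliverdin reductase, rose to 259 and 211 in E14.5 cells, against 57.7 and 46.7 in E11.5 cells (log2 difference 1.93 ± 0.22, limma adjusted p = 0.000185). Blvra, the main adult biliverdin reductase, rose to 312 and 288 in E14.5 cells, against 136 and 150 in E11.5 cells (1.01 ± 0.17, adjusted p = 0.00223). Hmox2, the constitutive heme oxygenase, gave 605 and 659 in E14.5 cells, against 485 and 433 in E11.5 cells (0.45 ± 0.14, adjusted p = 0.0461). The groups overlapped at none of these 3 genes. Over all tested genes 34.6% likewise had both E14.5 arrays above both E11.5 arrays, and 65.6% did not overlap either way. The call of Hmox2 was lost without E14.5 replicate 1 (0.51), E14.5 replicate 2 (0.39) or E11.5 replicate 2 (0.37), with arrays scaled to a common median (0.41), with no filter and without the variance trend.

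Genes for other steps of iron entry and exit were called in both directions, with 4 of 14 tested members higher and 2 lower. That is 28.6% and 14.3%, against 14.3% and 13.6% of all tested genes. Cybrd1, an iron reductase, rose to 227 and 135 in E14.5 cells, against 18.1 and 28.2 in E11.5 cells (2.40 ± 0.30, adjusted p = 0.00034). The E11.5 mean of Cybrd1, 23.2, lay below the filter of 27.3, so it was tested through its E14.5 signal. Its difference ran from 1.75 to 2.87 over the other settings. Slc22a17, a receptor for the iron-carrying lipocalin, rose by 1.22 ± 0.15, and Snx3, a sorting nexin that recycles the transferrin receptor, rose by 0.80 ± 0.12. The other was Slc48a1, a heme transporter of lysosomes (0.79 ± 0.21), named after its value was seen to complete the count; its call was lost without E14.5 replicate 1 (0.49), with no filter and without the variance trend. The members that fell were Steap2, a metalloreductase, at 43.7 and 30.1 in E14.5 cells, against 92.3 and 104 in E11.5 cells (-1.17 ± 0.27), and Flvcr1, a heme and choline transporter, at 143 and 115 in E14.5 cells, against 250.4 and 220.2 in E11.5 cells (-0.81 ± 0.19). Steap2 lost its call without E11.5 replicate 2 (-1.09) and with no filter, and Flvcr1 without E14.5 replicate 2 (-0.67).

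Of 11 tested members of iron storage and regulation, 1 (9.09%) was called, against 27.8% of all tested genes called either way. Ncoa4, which delivers ferritin to the lysosome, rose to 1084 and 1003 in E14.5 cells, against 541 and 623 in E11.5 cells (0.83 ± 0.14, adjusted p = 0.00189). The other 10, which include the heme-sensing repressor Bach1 (-0.09 ± 0.14) and the regulator Nfe2l2 (0.10 ± 0.16), were not called.

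Among enzymes of heme synthesis, 3 of 7 tested members were higher and 1 lower, against 14.3% and 13.6% of all tested genes. Fech, which puts iron into heme, rose to 683 and 805 in E14.5 cells, against 332 and 350.1 in E11.5 cells (1.09 ± 0.15, adjusted p = 0.00057). Alas1 (0.57 ± 0.17) and Urod (0.45 ± 0.14) also passed, but each lost its call without any 1 of E14.5 replicate 1, E14.5 replicate 2 and E11.5 replicate 2. The values without them were 0.61, 0.52 and 0.44 for Alas1 and 0.48, 0.42 and 0.33 for Urod. Alad, an early enzyme of the route, fell to 299.7 and 321 in E14.5 cells, against 602 and 455 in E11.5 cells (-0.73 ± 0.17), with its call lost without E11.5 replicate 1 (-0.53) and without the variance trend.

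Of 14 tested genes for mitochondrial iron and iron-sulfur clusters, 4 were higher and none was lower in the limma fit. The shares of all tested genes were 14.3% higher and 13.6% lower. Nfs1, the cysteine desulfurase that supplies the sulfur, rose to 712 and 629 in E14.5 cells, against 317 and 314 in E11.5 cells (1.05 ± 0.15, adjusted p = 0.000631). The scaffold Iscu rose by 0.66 ± 0.15, with its call lost without the variance trend. The co-chaperone Hscb (0.59 ± 0.18) passed as well, but not without E14.5 replicate 2 (0.43) or E11.5 replicate 2 (0.45). The other was the ferredoxin Fdx1 (0.56 ± 0.16), also named to complete the count, whose call was lost without E14.5 replicate 1 (0.46) or E11.5 replicate 2 (0.41).

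Over these 5 lists, 15 of 49 tested genes (30.6%) were higher and 3 (6.12%) lower, with a median log2 difference of 0.24, against 14.3% and 13.6% and a median of 0.03 over all tested genes. These lists too were chosen with earlier results of these arrays known, so nothing is read from the comparison. With no scaling 2 were called higher and 3 lower, and the signs of Alas1, Urod, Hmox2, Iscu, Hscb and Fdx1 turned. Without the variance trend 8 were higher, with no filter 9 and with arrays scaled to a common median 10, while quantile normalization gave 16.

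Iron genes share regulators with the NRF2 and hypoxia programmes, so textbook targets of both were counted too. The 10 genes described above were left out of these 2 lists, so the counts do not cover all targets. Of 7 tested NRF2 targets 1 (14.3%) was higher, against 14.3% of all tested genes. It was the quinone reductase Nqo1, at 153 and 105 in E14.5 cells, against 40.5 and 31.5 in E11.5 cells (1.53 ± 0.27, adjusted p = 0.00273). The other 6 were not called, among them Me1 (0.66 ± 0.23), Gclm (0.36 ± 0.18), Srxn1 (-0.07 ± 0.24) and Gclc (-0.47 ± 0.17). Of 10 tested HIF targets 3 were higher and 1 lower, against 14.3% and 13.6% of all tested genes. Egln3, an oxygen sensor, rose by 1.34 ± 0.24, the glycolytic enzyme Ldha by 0.67 ± 0.13 and Pgk1 by 0.43 ± 0.11, while the glucose carrier Slc2a1 fell to 384 and 220.1 in E14.5 cells, against 804 and 536 in E11.5 cells (-1.14 ± 0.26). Pgk1 lost its call without either E14.5 array (0.43 each) and under quantile normalization (0.02). Ldha and Slc2a1 lost theirs without the variance trend, and with no scaling the signs of Ldha and Pgk1 turned.

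**Figure D4:**
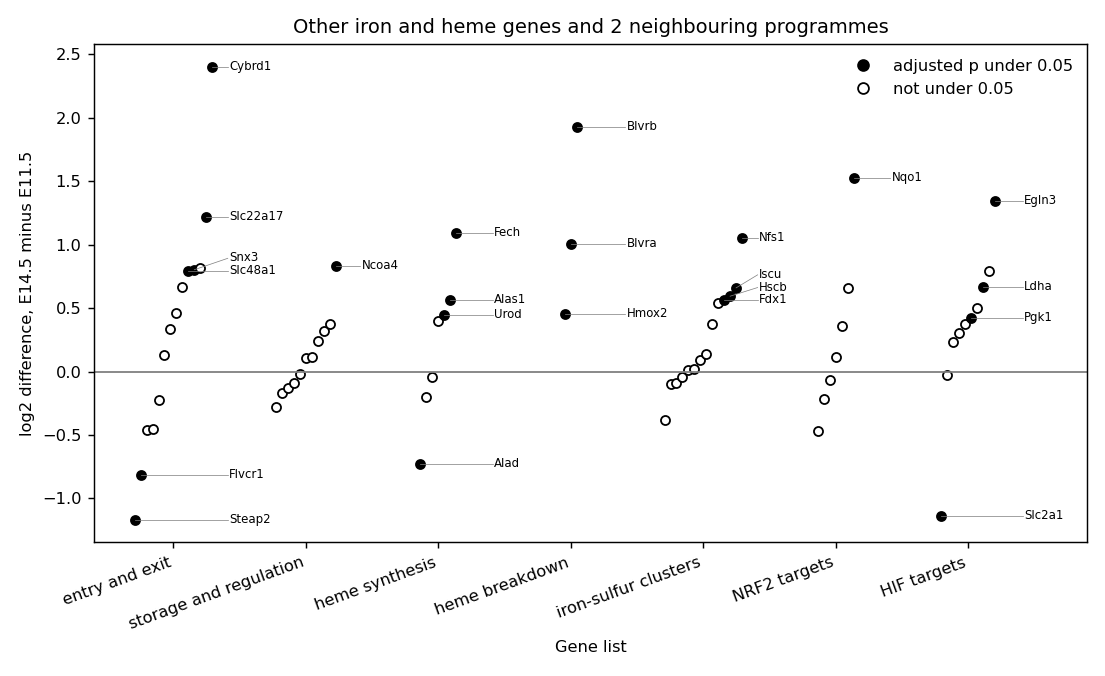
Log2 difference, E14.5 minus E11.5, for each tested gene of 5 iron and heme lists and of the NRF2 and HIF target lists, a point per gene by its brightest probe set. Filled and named points had an adjusted p under 0.05; all 3 genes of heme breakdown are filled and positive.

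Markers of other cells moved with these genes, and their part in the differences was not tested. For the counts below, 14.3% of all tested genes were called higher and 13.6% lower. The filter used the mean over all 4 arrays, so some members were tested only through the group where they are high. The E14.5 and E11.5 means of Gpr17, for example, were 1967 and 2.03. Such counts are a description and lend no support of their own. The microglia and macrophage list, whose cells are known for Hmox1 and Slc40a1, had 11 of 13 tested members higher and none lower, and its summed scaled signal over 14 genes was 2409 to 2500 in E14.5 cells, against 397 to 553 in E11.5 cells. C1qa, the gene of that list with the largest difference, gave 234 and 224 in E14.5 cells, against 4.57 and 7.76 in E11.5 cells; C1qa, C1qc and Aif1 had E11.5 means below the added constant. The oligodendrocyte lineage list, a lineage rich in ferritin, had 8 of 10 higher and none lower, with sums of 21206 to 23179 in E14.5 cells, against 1190 to 1552 in E11.5 cells. The E11.5 means of Gpr17, Cspg4 and the mature marker Mog lay below the constant, and so did the E14.5 mean of Mog. Astrocyte markers had 8 of 9 higher, with sums of 16118 to 20874 in E14.5 cells, against 5230 to 5559 in E11.5 cells. Among them, the E11.5 mean of S100b lay below the constant.

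Of the lists with a lower summed signal on both E14.5 arrays, those of dividing cells and neurons had most of their members lower. The share of all tested genes called lower was 13.6%. Proliferation genes had 8 of 10 lower, with sums of 13505 to 16094 in E14.5 cells, against 23387 to 24079 in E11.5 cells. Neuronal markers had 9 of 10 lower, with sums of 3973 to 4534 in E14.5 cells, against 12730 to 13644 in E11.5 cells. Erythroid markers, whose precursors carry much transferrin receptor, had 2 of 5 tested lower, the embryonic globins Hbb-y (-4.42) and Hba-x (-1.63). The other 3, Gata1 (0.21), Klf1 (0.58) and Epor (0.40), were not called, and the list's median was 0.21. The sums over 9 genes were 201 to 307 in E14.5 cells, against 485 to 1009 in E11.5 cells, and without Hbb-y they overlapped, at 178 and 306 in E14.5 cells, against 302 and 171 in E11.5 cells. Hbb-y gave 23.1 and 1.46 in E14.5 cells, against 707 and 314 in E11.5 cells. Hba-x gave 1.14 and 16.6 in E14.5 cells, against 64.3 and 38.5 in E11.5 cells. The E14.5 means of both globins lay below the constant, so they passed the filter through E11.5 cells alone. Alas2, the erythroid enzyme of heme synthesis, lay below the constant in both groups.

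Choroid plexus and endothelial lists, whose cells make or handle transferrin and ceruloplasmin, were dim and also had lower sums at E14.5. Their counts stand beside 14.3% of all tested genes called higher and 13.6% lower. The 16.7% of choroid plexus markers called lower is near that share. The choroid plexus list had 1 of 6 tested lower and none higher, with sums over 8 genes of 308 to 410.1 in E14.5 cells, against 685 to 707 in E11.5 cells. The endothelial list had 1 of 3 tested higher and 1 lower, with sums over 11 genes of 257 to 258 in E14.5 cells, against 310 to 395 in E11.5 cells. Pecam1 and Tie1 lay below the constant in both groups. Plvap, the 1 called higher, lay below it in E11.5 cells. Of the neuroepithelial markers 1 of 9 was higher and 3 were lower, against 14.3% and 13.6% of all tested genes, with sums of 15600 to 15661 in E14.5 cells, against 13166 to 14877 in E11.5 cells. Vim (means of 8207 at E14.5 and 6768 at E11.5) and Sox2 (4143 and 2730) were the brightest of that list. Its sum follows them, while the median log2 difference of its members was -0.37.

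**Figure D5:**
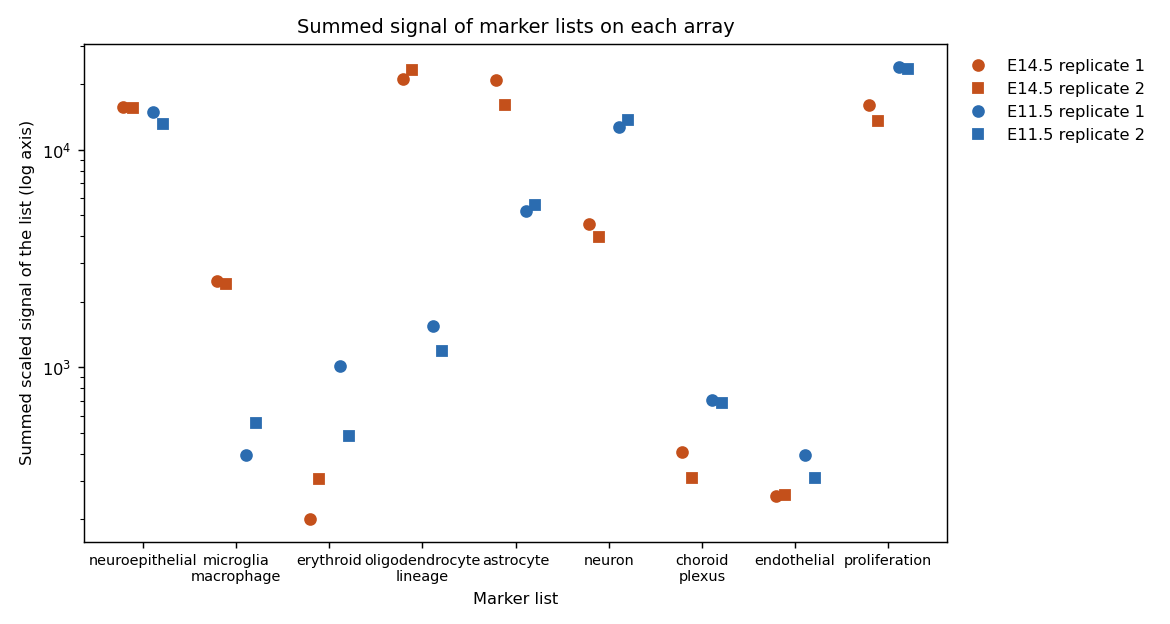
Summed scaled signal (log axis) of each marker list on the 4 arrays, E14.5 left of E11.5, a point per array. The sums of the neuroepithelial, microglia, oligodendrocyte and astrocyte lists are higher on both E14.5 arrays. Those of the erythroid, neuron, choroid plexus, endothelial and proliferation lists are lower on both. The neuroepithelial sum follows its brightest members, Vim and Sox2, while the median log2 difference of that list is -0.37.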

How the data were processed

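Expression was measured on 4 Affymetrix arrays of total RNA, 2 per group. The authors deposited 1 linear intensity per probe set and array, made with GCOS per the submitters' processing notes. The GCOS version, its settings and the build were not given in the sources used here. No scanner files or detection calls were used. Column medians were 36.2 and 26.6 for E14.5 and 43.9 and 60.8 for E11.5; any scaling by the authors stays unknown. The labels do not say that replicates came from separate cultures, so p-values reflect the spread of these arrays alone, possibly technical, and the number of arrays limits the precision.

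Of 45101 probe sets, 64 controls were left out of the fit, and the platform annotation named 1 gene for 34945, several for 932 and none for 9160. Of the single-gene probe sets, 204 had no match in RefSeq's gene table and kept the annotation's symbol. Arrays were multiplied by 1.13 and 1.68 (E14.5) and 0.932 and 0.691 (E11.5) so that their 2% trimmed means all equalled 174. The filter kept probe sets whose mean reached the 40th percentile (27.3), and 12.8, the 25th percentile, was added before log2, which shrinks differences of dim genes. limma 3.58.1 in R 4.3.3 (lmFit, eBayes with a trend) tested E14.5 minus E11.5, with Benjamini-Hochberg adjustment over 27022 probe sets. Its SE are moderated, with 7.99 prior against 2 residual degrees of freedom. A gene is represented by its brightest tested probe set, kept under every setting but those on the choice of probe set. The code of the fit was tried on simulated data with independent errors, which checks the code and lends no support to the calls.

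The 10 genes, the 16 other lists and the tests were chosen with earlier results of these data known. Named are all 10 genes and up to 3 called genes per direction of each other iron, NRF2 and HIF list; markers and genes given as not called were named after their values were seen. The titles number the replicates in both groups; the correlation of the replicate differences between the groups was 0.00 over probe sets, so the numbers were not taken to pair the arrays. Alternatives covered scaling, pseudocount, filter, variance trend, replicate block, choice of probe set and each array left out.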

Additional observations from a re-analysis of the deposited data

How the results depend on the processing

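Each of the 15 other settings kept Tfrc lower and called, and Fth1 and Hmox1 were called higher under all but unscaled values. With values as deposited, 400 probe sets were called higher, against 3012 after scaling, and 0 of the 7 genes were called higher (0.04 for Fth1, 0.41 for Slc40a1 and 0.94 for Hmox1), 2 were called lower, and 2 of the other iron and heme genes were higher. The signs of Alas1 (-0.17), Urod (-0.32), Hmox2 (-0.31), Iscu (-0.11), Hscb (-0.16), Fdx1 (-0.20), Ldha (-0.11) and Pgk1 (-0.35) turned there, where the median of all probe sets was -0.71. Without the variance trend 1919 probe sets were higher and 2097 lower, against 3012 and 3396, and 8 other iron and heme genes were higher; with no filter 9 were, against 15. The sign of Aco1 turned without E11.5 replicate 1 (0.057, with the 4 leave-outs running from -0.19 to 0.057), with its probe sets averaged (0.24) and at its brightest probe set other than _s_at and _x_at (0.24). Leaving out each array in turn gave 1 to 2 of the 7 genes lower and, of the other iron and heme genes, 10 to 16 higher and 2 to 3 lower; the higher end of the first came without E14.5 replicate 1 (Slc11a2). With the replicate number as a block, 3312 probe sets were higher and 3861 lower, and 3 of the 7 genes were higher and 1 lower; the block changed no call of the brightest probe sets of the 7 genes, and it called the second of Slc40a1, 1417061_at (1.00). Beyond the settings' own construction (fewer arrays, more probe sets), the cause was not tested. Iscu, Ldha and Slc2a1 lost their calls without the variance trend, and Alas1, Urod, Hmox2, Hscb, Fdx1 and Pgk1 lost their calls with arrays scaled to a common median, with no filter and without the variance trend. Signals near 12.8, such as those of Cp and of the 5′ end of Tfrc, limit what can be said of those probe sets.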
